A study of Mus musculus with 4 samples.

Results

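The gonadotropins are built from 3 subunit genes, and the accessibility of the chromatin around all 3 was compared here in a gonadotrope cell line. Cga encodes the α subunit that luteinizing hormone, follicle-stimulating hormone and thyrotropin share. Lhb and Fshb encode the β subunits that give luteinizing hormone and follicle-stimulating hormone their identity. The members were every ATAC-seq peak that the authors' annotation gave to one of the 3 genes and every peak centred within 100 kb of one of their start sites. They came to 297 of the 417506 peaks called in the 4 libraries, and merged into 141 of 255101 regions where peaks overlapped by at least 1 bp. Of these, 50 regions lay around Cga, 39 around Lhb and 52 around Fshb.

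ATAC-seq uses a transposase that cuts and tags DNA where it is not covered, so an open promoter or enhancer gathers more reads than its surroundings. The cells are named LβT2b or LbT2b in the protocol and the titles and LbT2 in the source label. LβT2 is an established mouse line that came from a pituitary tumour driven by a viral oncogene under the control of an Lhb regulatory region, so that copies of such a region other than the native gene may be present. Reads from such a copy were not separated here from those of the native Lhb promoter. Cells in 12-well plates, 350000 to a well, spent a night without serum and then 6 h in vehicle or in activin A at 1 nM. Each reaction took 50000 cells, and each treatment had 2 libraries. The cells carried no other labelled genetic change or agent, and the labels do not say whether the 2 libraries of a treatment came from separate cultures. The p-values below therefore measure the spread between these libraries, which may be technical.

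In the gonadotrope, Cga and Lhb are kept on by factors such as PITX1, steroidogenic factor 1 (the product of Nr5a1) and GATA2, and Lhb responds to gonadotropin-releasing hormone through EGR1. Fshb is the subunit gene best known for its response to activin, which acts through activin receptors, SMAD proteins and FOXL2. Many cell-specific genes are controlled both by the stretch just before the start site and by enhancers further away, and the balance between these is what the regions below describe.

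The promoter sequences of the 3 genes are shown first, because those of Cga and Lhb lay inside peaks of all 4 libraries (250 bases, and 248 for Lhb in vehicle library 2) and that of Fshb lay in none. They are the 250 bases before the RefSeq start site in GRCm38.p6, 5′ to 3′ on the gene's strand. Capitals mark matches to the motifs listed after them, on either strand, and overlapping matches run together. The Cga window is chr4:34893529-34893778 on the plus strand, the Lhb window chr7:45420696-45420945 on the plus strand and the Fshb window chr2:107059652-107059901 on the minus strand.
Cga: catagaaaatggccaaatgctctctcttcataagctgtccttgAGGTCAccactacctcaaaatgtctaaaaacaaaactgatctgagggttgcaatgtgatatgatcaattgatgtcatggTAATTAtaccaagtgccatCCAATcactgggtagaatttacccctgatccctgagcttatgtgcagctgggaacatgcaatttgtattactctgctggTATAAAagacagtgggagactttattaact
Lhb: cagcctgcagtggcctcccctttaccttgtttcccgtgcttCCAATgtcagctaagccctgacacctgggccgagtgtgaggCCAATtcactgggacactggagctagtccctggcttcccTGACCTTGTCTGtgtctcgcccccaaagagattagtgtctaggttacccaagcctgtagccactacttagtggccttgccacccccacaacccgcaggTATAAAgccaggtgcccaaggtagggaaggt
Fshb: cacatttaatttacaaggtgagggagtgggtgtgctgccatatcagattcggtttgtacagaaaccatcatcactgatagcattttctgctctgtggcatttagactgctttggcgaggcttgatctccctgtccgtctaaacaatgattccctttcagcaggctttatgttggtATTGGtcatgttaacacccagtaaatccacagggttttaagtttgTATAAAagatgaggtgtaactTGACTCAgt

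All 3 windows held TATAAA, the core of the TATA box, at −30 in Cga and Fshb and at −31 in Lhb, counted from the RefSeq start site to the first base of the match. That motif occurred in 12.4% of 32851 RefSeq promoter windows of the same length. CCAAT, the core of the CCAAT box, stood at −109 in Cga, at −209 and −168 in Lhb and on the other strand at −75 in Fshb, and in 33.8% of all windows. The sequence TGACCTTG, a binding sequence of steroidogenic factor 1, was at −129 in Lhb and in 1.33% of all windows and overlapped there the shorter nuclear receptor motif AGGTCA on the other strand, and next to it CAGACA, a SMAD-type motif also on the other strand, started at −123. AGGTCA was also at −207 in Cga and occurred in 14% of all windows, and CAGACA in 17.1%. TAATTA, a homeodomain core, was at −128 in Cga and in 4.84% of windows. TGAGTCA, the AP-1 site, was on the other strand at −9 in Fshb and in 4.46% of windows. The remaining motifs matched none of the 3 windows. They were the cyclic AMP response site TGACGTCA, found in 1.55% of all windows, the EGR1 site GCGGGGGCG, in 2.57%, and its shorter form CCCCCGC, in 9.63%. They also included the bicoid-type homeodomain core GGATTA, in 6.25%, the GATA factor motif AGATAA, in 9.99%, the SMAD palindrome GTCTAGAC, in 0.167%, and the forkhead motif GTAAACA, in 3.17%. A match or its lack describes these letters only and draws nothing about a factor.

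The base composition differed among the 3 genes. The Cga window was 40% G+C with 0 CpG, the Fshb window 42% with 3 CpG and the Lhb window 57.2% with 4 CpG. Over all RefSeq windows the medians were 52.4% and 6. Among all windows Cga was thus at percentile 11.8 for G+C, Fshb at 15.9 and Lhb at 64.7.

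Each library was sequenced to between 172146474 and 224226184 high-quality autosomal reads and had 70692 to 178358 peaks, the most in vehicle library 2. The enrichment at start sites was 2.48 to 2.72 with vehicle and 3.04 to 3.12 with activin. This quality measure moves with the treatment, and its part in the differences below was not tested. Accessibility is given in 2 forms. Density is the number of high-quality reads in the called peak per kb of its length and per 1000000 such reads in that library. The −log10 q is the authors' peak significance in that library. Reads are known only inside called peaks, so a place without a peak has no density. Library values are given in the order vehicle 1, vehicle 2, activin 1 and activin 2.

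Promoter peaks were also counted for 8 gonadotrope genes and 6 genes of other pituitary lineages. The gonadotrope list holds Cga and Lhb themselves and leaves out Fshb. Both lists were chosen with earlier results of these data known, so the counts describe these genes and do not test the identity of the cells. A peak within 1 kb of the start site was called in all 4 libraries for 6 of the 8 gonadotrope genes, namely Cga, Lhb, Gnrhr, Nr5a1, Gata2 and Tgfbr3l, and in 3 libraries for Pitx1 and Foxl2. It was called in all 4 for 0 of the 6 other genes. Of those, Pou1f1, the lineage factor of somatotropes, lactotropes and thyrotropes, had none, Gh and Pomc had one in 2 libraries each and Tbx19 in 1, while Prl and Tshb were given no peak. Among 16802 coding genes in the annotation, 37.6% had such a peak in all 4 libraries.

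The 3 loci differed in how many regions were open and in what these were. Around Cga, 11 regions were called in all 4 libraries, namely its own promoter, the promoter of Zfp292 and 9 distal regions that no library annotated as a promoter. Around Lhb there were 17, made up of its own promoter, 11 promoters of other genes and 5 distal regions. Around Fshb there were 9, with no promoter of its own, the promoter of Arl14ep and 8 distal regions. Over the 3 loci 26.2% of regions were called in all 4 libraries, against 11.7% of all regions in the genome.

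**Figure D1:**
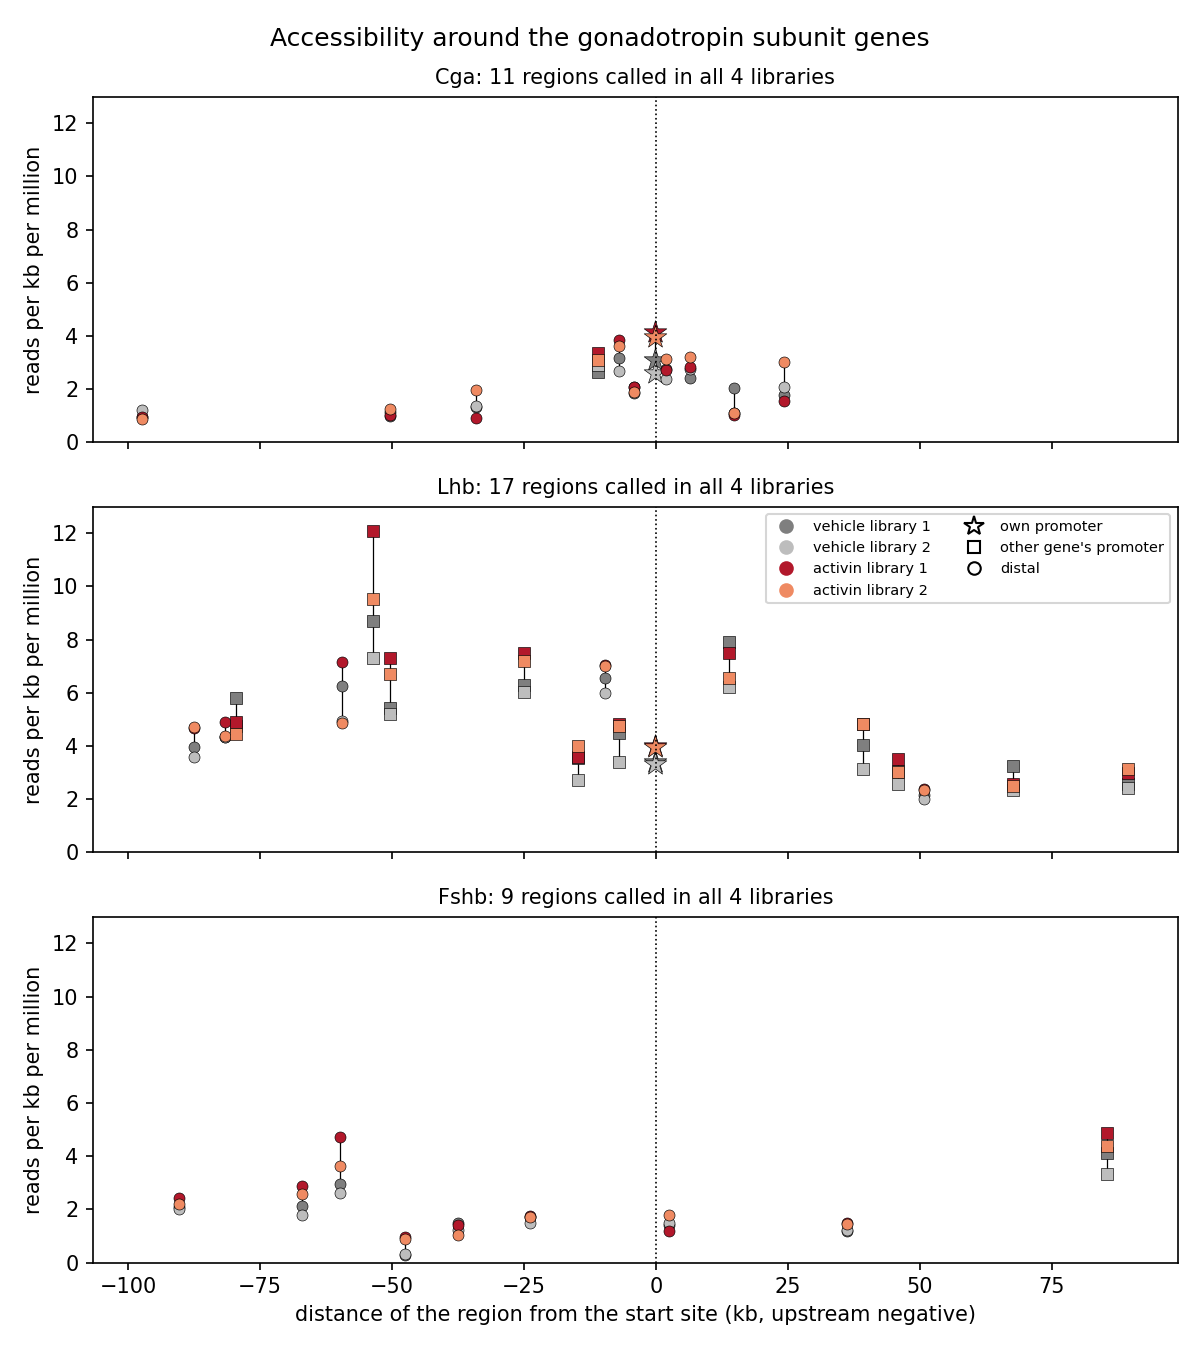
Density of each region called in all 4 libraries (high-quality reads per kb of peak per 1000000, vertical axis) against its distance from the start site of Cga, Lhb or Fshb (kb, upstream negative), with 1 point per library, stars for the gene's own promoter, squares for promoters of other genes and circles for distal regions. A reader should see the cluster of regions within 10 kb of Cga, the many promoters of other genes around Lhb, and the empty position at the Fshb start site beside the region 59.8 kb upstream.

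Gene density goes along with these counts. RefSeq places the start of 13 genes in the Lhb window, 12 of them coding, but only 4 genes in the Cga window and 2 in the Fshb window. Over 16456 coding genes the median number of regions called in all 4 libraries within 100 kb was 4, with quartiles of 2 and 7. Lhb stood at percentile 99.1 of that distribution, Cga at 91.5 and Fshb at 84.2.

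The share of reads shows the same split by the kind of region. Of the reads in regions called in all 4 libraries around Cga, 19.02% ± 0.936 (SD, n = 4 libraries) lay in its own promoter, 62.5% ± 3.20 in distal regions and 18.4% ± 2.33 in the Zfp292 promoter. Around Lhb only 3.11% ± 0.189 lay in its own promoter, 26.5% ± 1.09 in distal regions and 70.4% ± 1.12 in promoters of other genes. Around Fshb 84.4% ± 1.42 lay in distal regions and the remaining 15.7% ± 1.42 in the Arl14ep promoter. These shares depend on the length called, which for the distal regions was 3841 to 7794 bp around Cga, 4267 to 4856 bp around Lhb and 6596 to 7457 bp around Fshb.

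Per kb, with no background removed, the distal regions of Lhb were the densest of the 3 sets. All distal regions combined had 1.71, 1.83, 1.68 and 2.13 reads per kb per 1000000 around Cga. Around Lhb they had 4.30, 3.83, 5.00 and 4.51. Around Fshb they had 1.79, 1.62, 2.67 and 2.17. The lowest Lhb library was above the highest library of either other gene, while Cga and Fshb overlapped. The activin libraries were above the vehicle libraries around Fshb and around Lhb, and the groups overlapped around Cga. The order rests on density. By the authors' fold enrichment over background, the Lhb region 9.57 kb upstream had 2.61, 2.39, 2.52 and 2.47. The Cga region 7.03 kb upstream had 3.46, 2.74, 3.26 and 3.33, and the Fshb region 59.8 kb upstream 4.45, 4.40, 4.91 and 4.65. The Lhb region 59.4 kb upstream had 4.05, 3.69, 4.73 and 5.08.

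Cga carried an open promoter in every library. The start site lies at position 34893788 of chromosome 4 from the authors' distances, 9 bp from that of RefSeq, and the gene (ENSMUSG00000028298) spans 34893779 to 34907374. The promoter region ran from 34893205 to 34894092 and began at −583 to −576 bp from the start site in all 4 libraries. It held 422, 500, 825 and 600 reads, which is a density of 3.09, 2.60, 4.15 and 3.94. Both activin libraries were above both vehicle libraries, with 2.85 ± 0.346 reads per kb per 1000000 in vehicle and 4.05 ± 0.148 in activin (SD, n = 2 each), a ratio of 1.42. The exact 2-sided permutation test gave p = 0.33, which is the smallest that 2 libraries against 2 allow.

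The peak's significance moved in the same direction. Its −log10 q was 9.12 and 6.05 in vehicle and 22.2 and 17.7 in activin, without overlap. The peak was an ordinary one among promoters. Among all promoter peaks of a library it ranked by density at percentile 58.7 and 63.5 with vehicle and at 71.9 and 68.7 with activin. With each library centred on the median of 13871 regions shared by all libraries, the log2 change was 0.24 ± 0.10 (SE; limma unadjusted p = 0.0397, adjusted p = 0.509), so it did not pass the test. Scaled to all high-quality reads instead, it was 0.51 (limma adjusted p = 0.0473), under a scaling that moved the median of all shared regions by 0.27. The other alternatives gave limma adjusted p from 0.408 to 0.765.

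The 9 distal regions of Cga were 5 upstream and 4 downstream of the start site, and 4 of them lay within 10 kb of it. The densest by its mean and in 3 of 4 libraries, 7.03 kb upstream (34886462 to 34887053), was intergenic and nearest to Zfp292, a zinc finger gene on the upstream side. Its −log10 q was 9.56, 6.10, 13.7 and 10.8, and its density 3.18, 2.67, 3.86 and 3.61. The activin libraries were above the vehicle libraries by both measures, but the log2 change relative to all shared regions was 0.08 ± 0.10 (SE; limma adjusted p = 0.810). In reads per kb it was close to the promoter in every library. By −log10 q a region 24.2 kb downstream was above it in vehicle library 2 and activin library 2, and by density one 6.52 kb downstream was above it in vehicle library 2.

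A second upstream region, 4.14 kb before the start site (34889049 to 34890256), was given to Cga by the annotation and was weaker. Its −log10 q was 4.21, 2.06, 3.32 and 2.68. Its density was 1.85, 2.07, 2.07 and 1.89, and the groups overlapped. Its called length ranged widely between libraries, from 393 to 1127 bp, and it was not among the regions shared closely enough for the main test. With reads and lengths summed per library it changed by −0.16 on the log2 scale (limma adjusted p = 0.797).

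Inside the gene 2 regions were called in every library, both in intron 2 of 4. The first, 1.98 kb downstream of the start site (34895461 to 34896083), had a −log10 q of 3.97, 4.69, 7.17 and 8.05. The second, 6.52 kb downstream (34900022 to 34900586), had 4.49, 4.74, 9.81 and 6.57. At both, the 2 activin libraries had the higher significance. Their densities differed less. The first had 2.78, 2.38, 2.71 and 3.12, where the groups overlapped. The second had 2.41, 2.76, 2.82 and 3.20, where they did not. The log2 changes were −0.10 ± 0.13 and −0.06 ± 0.15 (SE; limma adjusted p = 0.821 and 0.926), and both became positive, 0.17 and 0.22, when scaled to all reads.

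Further out, 24.2 kb downstream and beyond the end of the gene, an intergenic region nearest to Gm12361 (34917481 to 34918594) had a −log10 q of 4.86, 6.95, 8.35 and 12.8. Its density was 1.80, 2.06, 1.56 and 3.02, so the activin libraries were the lowest and the highest. In activin library 1 the called interval was 1100 bp, against 379 to 487 bp in the others. The remaining named distal regions of Cga were weak. They lay in an intron of Platr9 14.9 kb downstream, in intron 1 of 7 of Zfp292 34.1 kb upstream and in an exon of Gm12363 50.3 kb upstream, and their −log10 q ranged from 1.12 to 3.01 over all libraries. The ninth, 97.3 kb upstream, was the region nearest to the edge inside the window, with a −log10 q of 1.11 to 1.63, and the next one outside was 107 kb away with 1.21 to 4.53.

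**Figure D2:**
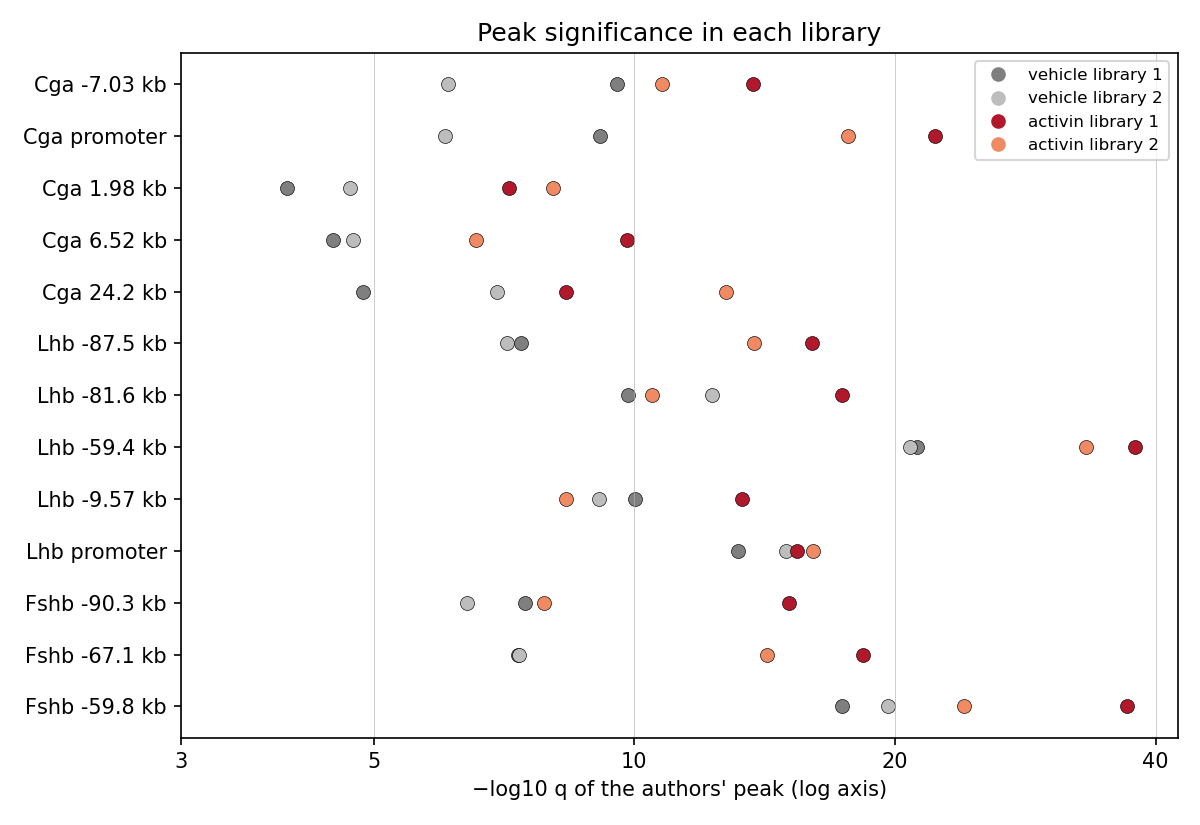
The authors' −log10 q in each library (horizontal log axis, 1 point per library) for the promoters of Cga and Lhb and for each of their distal regions and those of Fshb whose lowest −log10 q over the 4 libraries was at least 3, labelled by distance from the start site. The Cga promoter has vehicle values of 9.12 and 6.05 against 22.2 and 17.7 in activin, while the 4 libraries of the Lhb promoter lie between 13.2 and 16.1.

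Lhb had an open promoter of nearly fixed shape. The start site lies at position 45420820 of chromosome 7 (ENSMUSG00000100916) from the authors' distances, 126 bp before the RefSeq start site, so the authors' start site lies inside the printed sequence. The promoter region (45420305 to 45420952) was 634, 634, 648 and 648 bp long, and its end lay within a few bases of the RefSeq start site in every library. It held 373, 467, 584 and 457 reads, a density of 3.42, 3.33, 4.02 and 3.96. The libraries of a treatment lay close together and the groups did not overlap, with 3.37 ± 0.0613 in vehicle and 3.99 ± 0.0397 in activin (SD, n = 2 each), a ratio of 1.18 (exact permutation p = 0.33, the smallest possible).

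The significance of the Lhb promoter hardly differed between libraries. Its −log10 q was 13.2 and 15.0 in vehicle and 15.4 and 16.1 in activin. Relative to all shared regions its log2 change was −0.03 ± 0.10 (SE; limma adjusted p = 0.942), the opposite sign to the change per 1000000 reads, which was 0.24. By density it ranked between percentile 66.1 and 78.5 of the promoter peaks of a library. By −log10 q it ranked at percentile 69.0, 81.6, 55.9 and 65.3. By fold enrichment it ranked lower, at percentile 38.4, 55.5, 31.8 and 36.0, so its standing depends on the measure.

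All 5 distal regions of Lhb were in or beside other genes, and the annotation gave none of them to Lhb. The densest by its mean and in 3 of 4 libraries lay 9.57 kb upstream (45411056 to 45411453) in exon 2 of 2 of Kcna7, a potassium channel gene, and nearest to the start of Ntf5, a neurotrophin gene. Its −log10 q was 10.0, 9.10, 13.3 and 8.35. Its density was 6.54, 5.98, 7.06 and 7.01, higher than that of the Lhb promoter in each library. By −log10 q and by fold enrichment, however, this region was below the Lhb promoter in each library. Its called intervals were short, from 280 to 398 bp, and its log2 change was −0.10 ± 0.09 (SE; limma adjusted p = 0.730).

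The other distal regions of Lhb lay over 50 kb away. The most significant, 59.4 kb upstream (45360878 to 45361897), spanned exon 2 and intron 2 of Ppfia3, the gene of a liprin scaffold protein. Its −log10 q was 21.2, 20.8, 37.9 and 33.2, higher in both activin libraries. Its density was 6.26, 4.94, 7.16 and 4.88, with activin library 2 the lowest and activin library 1 above the 7.06 of the region 9.57 kb upstream, and the log2 change was −0.19 ± 0.15 (SE; limma adjusted p = 0.704). In that library the interval was 948 bp long, against 595 to 646 bp in the others. Density and significance thus ordered the libraries differently at this region.

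A region 87.5 kb upstream in intron 2 of 24 of Trpm4 (45332695 to 45333896), a cation channel gene, had a −log10 q of 7.41, 7.13, 16.0 and 13.8. Its density was 3.96, 3.58, 4.69 and 4.72, without overlap between the groups, but the log2 change relative to all shared regions was 0.05 ± 0.09 (SE; limma adjusted p = 0.896). At the 3′ end of Ppfia3, 81.6 kb upstream, the density was 4.33, 4.35, 4.90 and 4.39. That region held 2 peaks in each vehicle library and 1 in each activin library, so it was not in the main test. The only intergenic distal region, 50.8 kb downstream near Bax, was weak, with a −log10 q of 1.41 to 3.71.

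Among the 11 promoters of other genes around Lhb, 7 had a −log10 q of at least 5 in every library. They were 2 promoters of Ppfia3, one of them nearest to Mtag2, and those of Lin7b, of the splicing factor gene Snrnp70, of Ntf5, of the ATPase gene Ruvbl2 together with Gys1, and of the ferritin gene Ftl1. The densest, 53.5 kb upstream and nearest to Mtag2, had 8.71, 7.30, 12.1 and 9.52 reads per kb per 1000000, and the mean density of a treatment ranged from 2.50 to 10.8 over the 11. The Lhb promoter was therefore not among the densest promoters of its own neighbourhood. The region 13.9 kb downstream, nearest to the start of Ruvbl2 and annotated as a promoter of Gys1, the muscle glycogen synthase gene, had a log2 change of −0.27 (limma unadjusted p = 0.0260, adjusted p = 0.479) and was the only tested region in the Lhb window with an unadjusted p under 0.05.

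Fshb differed from both in having no peak at its start site in any library. The start site lies at position 107059656 of chromosome 2 on the minus strand, 5 bp from that of RefSeq, and the gene (ENSMUSG00000027120) spans 107055986 to 107059651. The nearest peak lay 2.41 kb downstream in vehicle library 1, 2.25 kb upstream in vehicle library 2, 2.09 kb upstream in activin library 1 and 2.36 kb downstream in activin library 2. These peaks were weak, with a −log10 q of 1.28, 1.32, 2.27 and 1.26, where the lowest deposited value was 1, from 73, 71, 57 and 41 reads. With no peak there is no density for the Fshb promoter, so its level cannot be set beside the others, and the lack of a peak does not show that it is closed. Of the 16802 coding genes, 38.2% had no peak within 1 kb of a start site in any library.

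The accessible DNA around Fshb was distal instead, and most of it far upstream. Of the 8 distal regions called in every library, 6 lay upstream, 6 were intergenic and 1, in exon 3 of 3, was given to Fshb itself. The densest lay 59.8 kb upstream (107118719 to 107120097), nearest to Gm13903, with 2.94, 2.61, 4.72 and 3.63 reads per kb per 1000000. Its −log10 q was 17.4, 19.7, 37.1 and 24.0. The groups did not overlap, and the log2 change relative to all shared regions was 0.30 ± 0.12 (SE; limma adjusted p = 0.498). Scaled to all reads it was 0.58 (limma adjusted p = 0.0348), and the other alternatives gave limma adjusted p from 0.223 to 0.871.

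Its neighbour 67.1 kb upstream (107125668 to 107127886) had 2.11, 1.77, 2.87 and 2.57, again without overlap, and its log2 change of 0.22 ± 0.12 (SE) did not pass (limma adjusted p = 0.604). The region 90.3 kb upstream changed by −0.10 and that 23.9 kb upstream by −0.15, with limma adjusted p of 0.822 and 0.769. At the region in exon 3 the density was 1.43, 1.49, 1.19 and 1.77, and the activin libraries were the lowest and the highest. A weak region 47.5 kb upstream had a density of 0.277, 0.326, 0.969 and 0.894, the lowest vehicle values of any distal region called in all 4 libraries. There the called interval was 1027 and 1013 bp in vehicle and 378 and 641 bp in activin, and the −log10 q was 1.82, 2.39, 1.31 and 1.91, so the density and the significance did not order the groups alike. It was not in the main test, and the fit of all merged regions gave 1.45 on the log2 scale with limma (unadjusted p = 0.0056, adjusted p = 0.511).

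Promoter and distal accessibility were then set against each other within each library, which removes the library's depth. For Cga the log2 of promoter over densest distal region was −0.04, −0.04, 0.11 and 0.13, with a mean of 0.04 ± 0.09 (SD, n = 4). The promoter and the region 7.03 kb upstream thus had nearly the same density. For Lhb the ratio to the region 9.57 kb upstream was −0.94, −0.84, −0.81 and −0.82, with a mean of −0.85 ± 0.06. The difference between the genes was 0.89 ± 0.06 and had the same sign in 4 of 4 libraries (exact 2-sided sign-flip permutation p = 0.13, the smallest that 4 libraries allow). It rests on density: with the authors' fold enrichment in its place the difference was −0.13. No such ratio exists for Fshb.

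In both genes the ratio was higher in both activin libraries than in either vehicle library, and 2 libraries each cannot test this. For Cga the mean was −0.04 in vehicle and 0.12 in activin, and for Lhb −0.89 and −0.82, each with an exact permutation p of 0.33, the smallest possible. Against the median of the distal regions in place of the densest, the Cga promoter was 0.87 ± 0.45 higher and the Lhb promoter −0.32 ± 0.06, that is lower. By density, the Cga promoter therefore stood above most of its distal regions, and the Lhb promoter below most of its own. The Lhb part rests on density. By the authors' fold enrichment, each of the 2 promoters stood above most of its distal regions in every library. For Lhb the promoter had 2.87, 2.77, 2.82 and 3.15, and the region 59.4 kb upstream was above it in every library.

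Levels were also compared between the genes, per kb and within each library, in 4 comparisons. The Lhb promoter exceeded the Cga promoter by 0.14, 0.36, −0.05 and 0.01 on the log2 scale, with a mean of 0.12 ± 0.18 (SD, n = 4; exact sign-flip permutation p = 0.375, adjusted 1). The densest distal region of Cga against that of Fshb gave −0.04 ± 0.17 (exact sign-flip permutation p = 0.875, adjusted 1). The Cga promoter against the densest distal region of Fshb gave 0.00065 ± 0.133 (p = 1 by the same exact test), and the Lhb promoter against it 0.12 ± 0.25 (exact p = 0.5, adjusted 1). The spread between libraries was larger than the mean in the 4 comparisons, which with 4 libraries cannot show that these levels are alike. That spread included the treatment. The first, second and last of these log2 ratios were lower in both activin libraries than in either vehicle library. Their means differed by −0.27, −0.22 and −0.34 (exact permutation p = 0.33 each, the smallest possible). For the Cga promoter against the Fshb region the groups overlapped. These comparisons rest on density. By −log10 q and by fold enrichment, the Fshb region was above both promoters and the densest distal region of Cga in every library. Its fold enrichment was 4.45, 4.40, 4.91 and 4.65, against 3.27, 2.70, 3.78 and 3.94 at the Cga promoter and 2.87, 2.77, 2.82 and 3.15 at the Lhb promoter.

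**Figure D3:**
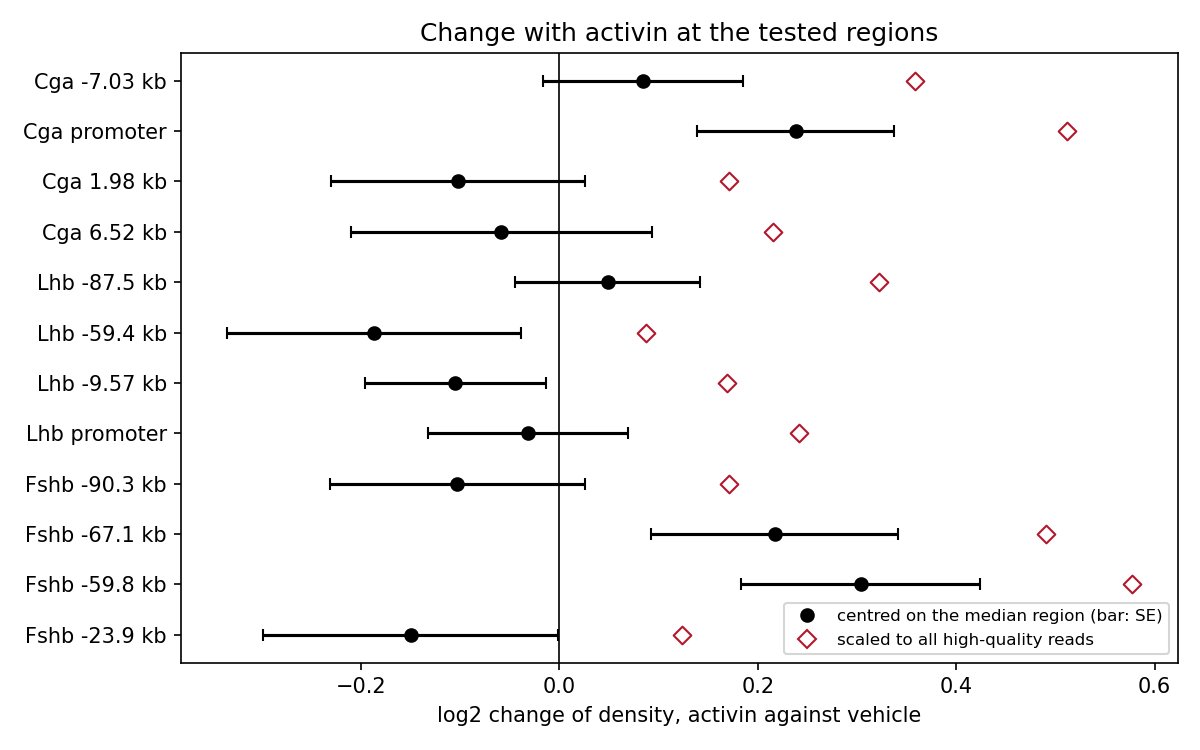
log2 change of density with activin against vehicle at the tested promoter and distal regions of the 3 genes (horizontal axis), with black points and SE bars for the limma estimate centred on the median shared region and open diamonds for the same with density scaled to all high-quality reads. The Cga promoter, at 0.24, and the Fshb region 59.8 kb upstream, at 0.30, have the highest centred values, and every diamond lies to the right of its point.

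Across the 3 loci, 21 of the 37 regions called in all 4 libraries could be tested: 5 around Cga, 11 around Lhb and 5 around Fshb. None had a limma adjusted p under 0.05, and 0% of the 13871 shared regions did. At an unadjusted limma p under 0.05, 2 of the 21 were higher with activin, the Cga promoter and the Fshb region 59.8 kb upstream, and 1 was lower, the region at the starts of Ruvbl2 and Gys1. Over all shared regions 3.62% were higher and 5.91% lower at that level. The median log2 change was −0.06 around Cga, −0.02 around Lhb and 0.05 around Fshb, and −0.0049 over all shared regions.

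Counts of regions where both activin libraries exceeded both vehicle libraries have to be read against the same genome-wide. By density this held at 17 of the 21 tested regions, 4 of 5 around Cga, 8 of 11 around Lhb and 5 of 5 around Fshb, and at 62.4% of all shared regions. By −log10 q it held at 17 of 21, and at 71.7% of all shared regions. By the authors' fold enrichment it held at 14 of 21, and at 61% of all. Both activin libraries lay below both vehicle libraries by density at 0 of the 21, and at 3.56% of all shared regions. A shift toward higher values in the activin libraries was thus common in the genome, and a larger share of cells with open chromatin cannot be told apart from more open chromatin per cell. The enrichment at start sites, a quality measure, was also higher in the activin libraries, 3.04 to 3.12 against 2.48 to 2.72 with vehicle. Its part in the shift was not tested.

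Regions seen under a single treatment were few and weak. Both activin libraries and neither vehicle library had a peak at 7 of the 141 regions, 3 around Cga, 1 around Lhb and 3 around Fshb, which is 4.96%, against 1.35% of all regions. Both vehicle libraries and neither activin library had one at 5 regions, 1 around Cga, 3 around Lhb and 1 around Fshb, which is 3.55%, against 4.86% of all. The 4 mixed pairs, with 1 library from each treatment, gave 1, 1, 9 and 6. Genome-wide, these mixed pairs had 2406, 1409, 10855 and 6887 of the 255101 regions, in the same order. The corresponding numbers were 3454 with activin and 12397 with vehicle. As raw counts, the 7 and the 5 lay within the range of the mixed pairs. The genome-wide level differed from pair to pair, however, and the window counts were not tested against it. With a treatment represented by 1 library its count grew, to 15 and 19 activin regions without activin library 1 or 2, and to 37 and 22 vehicle regions without vehicle library 1 or 2. None of the 12 was given to a subunit gene, and the highest value that both libraries of a pair reached was a −log10 q of 2.35, at the end of Zfp292 81.8 kb upstream of Cga.

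**Figure D4:**
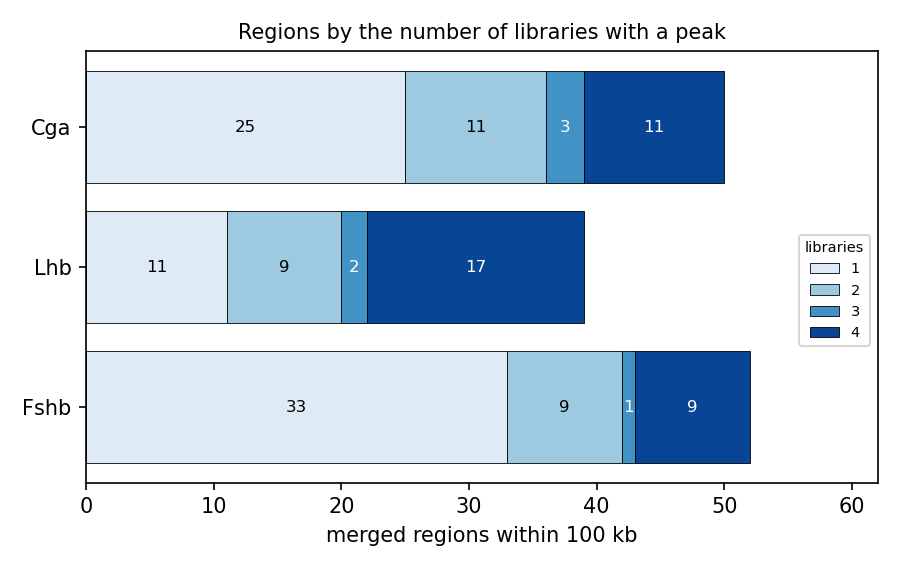
Number of merged regions within 100 kb of each gene's start site (horizontal axis), split by how many of the 4 libraries had a peak there, from light (1 library) to dark (all 4). Lhb has 17 regions in all 4 libraries and 11 in a single one, whereas Fshb has 9 and 33 and Cga 11 and 25.

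Most regions that were not called everywhere came from 1 library. Around Fshb 63.5% of regions were called in a single library, around Cga 50% and around Lhb 28.2%, against 67.4% of all regions. Vehicle library 2, which had the most peaks, supplied 14 of the 25 such regions around Cga, 5 of the 11 around Lhb and 13 of the 33 around Fshb.

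The genes that control the subunit genes were described by the same promoter peaks. Of 22 genes of gonadotropin transcription, 11 had a peak within 1 kb of the annotated start site in all 4 libraries, beside 37.6% of coding genes. They included Gnrhr, the receptor of gonadotropin-releasing hormone, Nr5a1, Egr1 and Gata2 among the transcription factors, Smad2 among the signal carriers, the activin receptor genes Acvr1b and Acvr2b, and Inhbb, the gene of the inhibin βB subunit. Lhx3, Esr1, Smad3, Smad4 and Inhba had none in any library, by the annotated distance, which refers to 1 start site a peak. Fst was given no peak. A shared region could be tested at 11 of the 22 genes, a set that differed in part from the 11 above. The tested set included Foxl2 and Isl1, with a promoter peak in 3 and 2 libraries, and left out Nr5a1 and Acvr2b. The log2 change was positive at 8 and negative at 3, from −0.12 to 0.13, with a median of 0.08. Over all shared regions 48.9% were positive. By limma 0 of 11 were under an adjusted or unadjusted p of 0.05. Over all shared regions 3.62% were higher and 5.91% lower at the unadjusted level, and 0% passed the adjusted one. For 2 other glycoprotein hormone genes with peaks assigned, Gphb5 had no promoter peak and Gpha2 had one in the vehicle libraries alone.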

How the data were processed

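ATAC-seq libraries came from LβT2b cells, as the protocol spells them, 4 in all, 2 per treatment, grouped by sample title. Per the submitters' processing notes, the tools named are Bowtie2, MACS2 and HOMER and the builds GRCm38 and mm10. The authors deposited, per library, broad peaks called on that library alone, with a score, a fold enrichment (ratio to background), and the −log10 of the p-value and q-value. They also deposited HOMER annotations, per the file headers, with a peak score, and reports of ataqv 1.3.1 with high-quality read numbers for each peak.

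From these files, peaks overlapping by at least 1 bp were merged into regions. A promoter region held a peak centre at most 1 kb from the start site, which was derived from the authors' annotated distances, and a distal region was annotated as promoter in no library. Shared autosomal regions, with exactly 1 peak per library and a common part of at least 50% of the union, were tested with limma 3.58.1 (lmFit, eBayes with trend) in R 4.3.3 on log2 of (reads + 1) per kb, centred on each library's median, with Benjamini-Hochberg adjustment over 13871 regions. The +1 shrinks changes where reads are few. Single values were compared by exact permutation of libraries. On simulated data for activin against vehicle over 13871 regions, with 200 given a log2 change of 1, 165 were called and 0 had the wrong sign. In that run 10 unchanged regions were called too. The highest centred change at the tested regions of the 3 genes was 0.30, so the run does not show how often changes of that size are called. In a run without any change, 3 were called.

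Regions named were the promoters of the 3 genes, regions called in all libraries and given to them, up to 8 distal regions per gene by lowest −log10 q, promoters of other genes with −log10 q of at least 5 in all libraries, and regions of a single treatment that were given to the genes or had a lower −log10 q of at least 3. The members, lists and motifs were chosen with earlier results of these data known. Other features named beside these (the weak regions nearest to the window edge, at 47.5 kb from Fshb and at 81.8 kb from Cga) were chosen after their values were seen. Promoter sequences are from RefSeq, GRCm38.p6, and 3 of 3 genes matched. No genome sequence was used, so distal sequences are not shown.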

Additional observations from a re-analysis of the deposited data

How the results depend on the processing

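The number of shared regions with a limma adjusted p under 0.05 was 0 as reported. It was 1 with a pseudocount of 10 reads, 39 without division by length, 605 (553 higher and 52 lower with activin) with density scaled to all high-quality reads and 4 with a replicate block. Leaving out 1 library gave 0 to 9, with 1 without activin replicate 1 and 9 without activin replicate 2; the lone library of a treatment is then assumed to vary like the other 2. Library numbers were not taken as pairs, since deviations of same-numbered libraries had a correlation of −0.0252. For the 12 named promoter and distal regions, 98 of 124 values under alternatives kept sign and side of the threshold, 2 passed it (scaled to all reads: Cga promoter and Fshb 59.8 kb upstream) and 24, in 9 regions, changed sign. None of the 24 passed the test. Scaled to all reads, the changes were 0.17 and 0.22 at the Cga introns (1.98 and 6.52 kb), 0.24 at the Lhb promoter, 0.087 and 0.17 at Lhb −59.4 and −9.57 kb, and 0.12 and 0.17 at Fshb −23.9 and −90.3 kb. Without division by length they were −0.030 at Cga −7.03 kb, 0.32 and 0.15 at the introns, −0.014 at Lhb −87.5 kb, 0.00019 at Lhb −59.4 kb and 0.50 at Fshb −90.3 kb. With all merged regions they were 0.0043 and 0.048 at the introns, 0.0019 at Lhb −9.57 kb, 0.075 at the Lhb promoter and 0.0038 at Fshb −90.3 kb, and with a common part of 80%, −0.039 at Lhb −87.5 kb. Leaving out 1 library gave −0.24 to 0.038 and −0.24 to 0.13 at the introns (positive without activin replicate 1, and at 6.52 kb also without vehicle replicate 2), −0.43 to 0.052 at Lhb −59.4 kb (positive without activin replicate 2) and −0.10 to 0.037 at the Lhb promoter (positive without vehicle replicate 2). The Lhb promoter level, centred on shared regions, changed by −0.032 on the log2 scale, and the Cga minus Lhb ratio of promoter to distal was −0.13 by fold enrichment. Activin-restricted and vehicle-restricted regions in the 3 windows, 7 and 5, were 4 and 0 at −log10 q of at least 5 and 5 and 1 at 2. They were 8 and 1 with equal numbers of peaks, and 2 and 1 within 50 kb. Over the whole genome the counts were 2539 and 81 of 21240 regions at 5, and 3135 and 940 of 63588 at 2. With equal numbers of peaks they were 5411 and 4194 of 158264. Leaving out 1 library gave 9 to 19 and 5 to 37 in the windows, beside 5114 to 28432 and 15523 to 115391 genome-wide. The cause was not tested for any of these. With 2 libraries a treatment no permutation test could pass 0.05, reads outside peaks are unknown, and called lengths differ between libraries.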
